A study of Rattus norvegicus with 6 samples.

Results

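The extracellular matrix is the network of secreted proteins around cells, and in the brain it is densest in the meninges, around blood vessels and in the basement membranes at the surface of the cortex. Collagens give it tensile strength, laminins and type IV collagens form the sheets of basement membranes, and lysyl oxidases crosslink fibres. Matrix metalloproteinases and ADAMTS proteases cut matrix proteins, and the TIMP proteins inhibit them. Neurons express some of these genes, but fibroblasts, mural cells, endothelial cells and astrocytes are their better known sources.

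Extracellular matrix and mesenchymal genes were examined on 6 arrays of rat primary cortical cells, 3 transfected with a Math2 expression vector and 3 with a control vector. Math2, now named Neurod6, is a transcription factor of the basic helix-loop-helix class found in cortical neurons. The members were chosen by platform gene symbol: collagen chains, laminin chains, fibrillins, fibulins, metalloproteinases, TIMPs, ADAMTS proteases and lysyl oxidases, with Fn1, Dcn, Lum, Ogn, Postn, Mgp, Igf2 and Aldh1a2. They came to 101 genes with 146 probe sets, of 14217 genes with 1 symbol and 31042 probe sets in all. Thbs1, also in the rule, was not analysed here.

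Math2 dishes received 13.3 µg of Math2 vector and control dishes the same amount of control vector. All dishes also received 2.7 µg of a vector for a cytoplasmically truncated low-affinity nerve growth factor receptor (LNGFR), a surface tag through which transfected cells were selected magnetically after 24 h. RNA was amplified over a pair of cycles from 50 ng of total RNA and hybridised to Affymetrix rat expression arrays. The cells were a mixed primary culture grown in serum, the sources used here give neither the age of the animals nor the promoter of the vectors, and nothing says whether the 3 samples of a group were separate cultures. The p-values therefore rest on the spread among 3 samples a group, and that spread may be only technical.

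Values are array signals on a linear scale, scaled to a common level on each array, and the arrays' median signals ran from 102 to 120. The number of arrays limits the precision, and the values carry no call of detection above background. Log2 differences are Math2 minus control on log2(signal + 7.41), which understates the change of dim genes. The Gapdh 3' to 5' signal ratio, which increases with RNA degradation, was 8.48, 5.997 and 8.14 on Math2 arrays 1, 2 and 3, against 13.8, 3.74 and 5.04 on control arrays 1, 2 and 3. Hybridisation spike-ins had a geometric mean signal of 6773, 4044 and 3875 on the Math2 arrays, against 2476, 1893 and 2566 on the control arrays. The part of these array measures in the results was not tested.

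Most measured matrix genes read lower on the Math2 arrays, by small amounts, and no single gene passed the test across the array. Of the 101 member genes, each taken by its brightest probe set, 68 were lower and 33 higher, with a median log2 difference of -0.21, beside -0.016 over all 14217 genes. A filter on the mean signal left 67 member genes with 86 probe sets for testing. Of these 67 genes 49 were lower and 18 higher, with a median of -0.22 beside -0.028 over all 10417 tested genes. In limma, adjusted over all 18625 tested probe sets, 0 of 86 member probe sets passed (smallest adjusted p = 1.00), and 0 passed with the replicate number as a block (smallest adjusted p = 0.373). Over all tested probe sets 0% were called lower and 0% higher, and with the block 0% lower and 0.0161% higher.

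At an unadjusted p under 0.05 in limma, 7 member probe sets were lower (background 1.44%) and 0 higher (background 1.75%). With the replicate block these counts were 11 lower (background 3.92%) and 1 higher (background 3.78%). The groups did not overlap for 10 lower member probe sets, which is 11.6% of those tested (background 4.3%), and for 2 higher ones, or 2.33% (background 3.7%). The filter on mean signal keeps a dim gene more readily when 1 group is high, so the counts over tested probe sets carry that limit. A log2 difference below 0 was found for 62 of the 86 (72.1%, background 54.3%), and differences of at least 2-fold for 2 lower (background 0.8%) and 0 higher (background 0.655%). Because each sample is a bulk RNA extract, fewer cells of a type and less RNA per cell cannot be told apart.

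**Figure D1:**
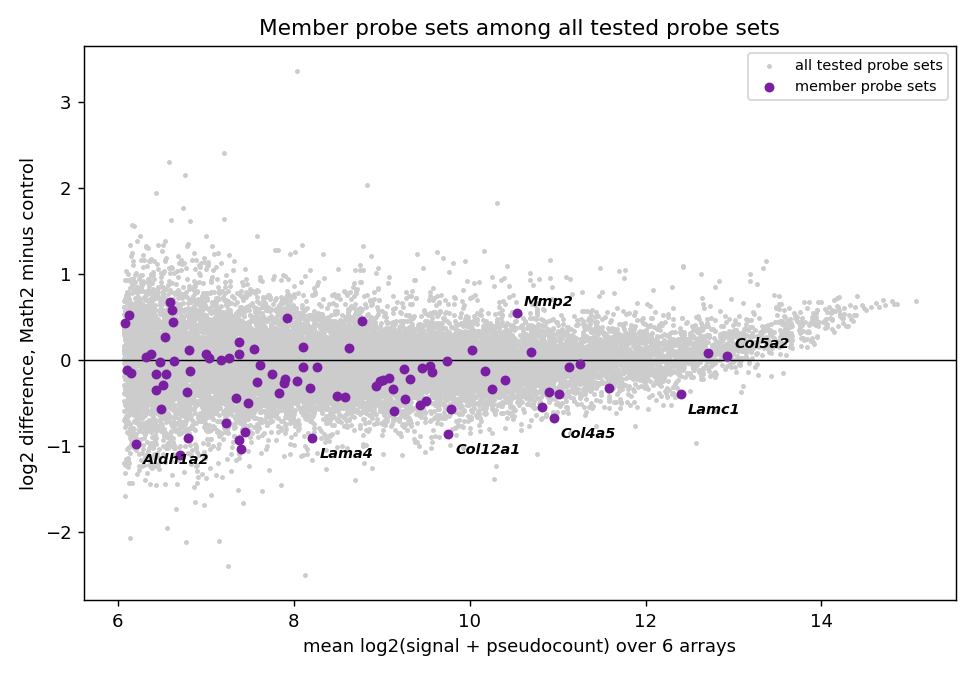
Each point is 1 tested probe set, with its mean log2(signal + pseudocount) over the 6 arrays on the x axis and its log2 difference, Math2 minus control, on the y axis; the 86 member probe sets are purple and all 18625 tested probe sets grey. The members lie within the grey cloud, and 62 of them are below 0.

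The lower reading was not shared by every numbered pair of arrays. Samples carry the replicate numbers 1, 2 and 3 in both groups, and arrays of the same number deviated from their group means in a partly similar way. The correlations of these deviations were 0.326, 0.476 and 0.372 for numbers 1, 2 and 3. Within pairs 1, 2 and 3, the median log2 difference of the 67 tested member genes was -0.27, 0.0013 and -0.33. Over all tested genes the medians were -0.0081, 0.0057 and -0.068. Pair 2 thus showed no lower median, while pairs 1 and 3 did. The lower direction was present in 3 of 3 pairs for 23 member probe sets (26.7%, background 15.2%), and the higher direction for 7 (8.14%, background 13.1%).

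**Figure D2:**
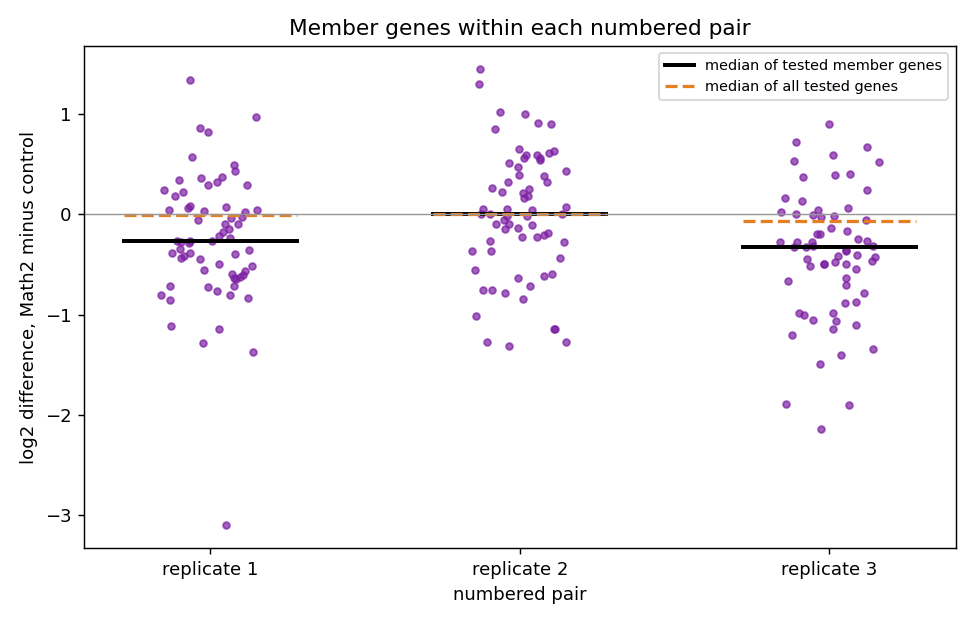
Points are the 67 tested member genes, with the log2 difference between the Math2 and control arrays of 1 replicate number on the y axis and the pair on the x axis; black bars are their medians and dashed orange bars those of all tested genes. The black bars stand at -0.27, 0.0013 and -0.33 in pairs 1, 2 and 3.

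The plot of levels by array shows how the genes of each role group were distributed. Median deviations from each gene's own mean over the 6 arrays were -0.17, 0.014 and -0.14 on Math2 arrays 1, 2 and 3, against 0.13, 0.054 and 0.20 on control arrays 1, 2 and 3. The groups did not overlap in this measure, and Math2 array 2 lay nearest to the control arrays. All 11 role groups had a median log2 difference below 0, beside -0.028 over all tested genes. These ran from -0.063 for the lysyl oxidases (-0.0038 with quantile normalization) to -0.57 for the pair of Igf2 and Aldh1a2. Of that pair, Aldh1a2 passed the filter on mean signal only through the control arrays. Within numbered pair 2, medians were above 0 for fibrillar (0.25) and basement membrane collagens (0.16), glycoproteins (0.0060), lysyl oxidases (0.28) and metalloproteinases (0.39). Metalloproteinases were also above 0 in pair 1 (0.18). The remaining role groups were below 0 in 3 of 3 pairs.

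**Figure D3:**
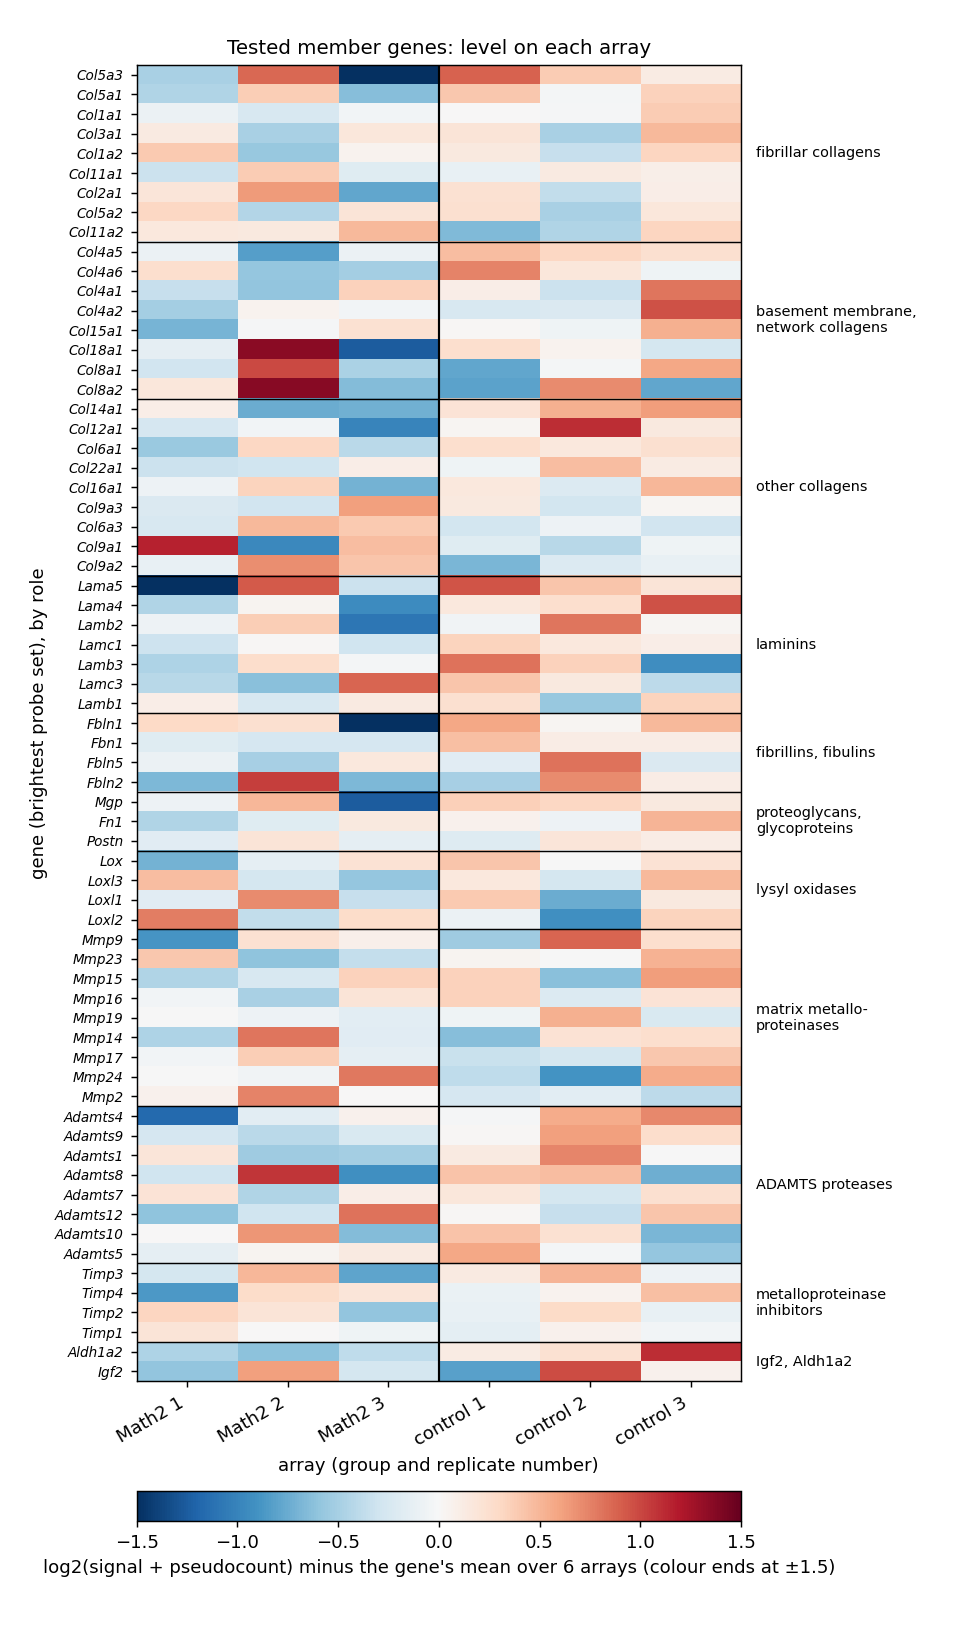
Rows are the 67 tested member genes, sorted by role and then by difference, and columns are the 6 arrays, Math2 arrays at left; colour is log2(signal + pseudocount) minus the gene's mean over the 6 arrays, blue for low and red for high, with the scale ending at ±1.5. Laminins and fibrillins are mostly blue on Math2 arrays 1 and 3, while several fibrillar collagens are blue on both arrays numbered 2.

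Fibrillar collagens are the chains of the banded fibres of connective tissue. Of 11 genes 9 were tested, 6 lower and 3 higher, with a median of -0.086. A dim gene among the 3 higher passed the filter on mean signal only through the Math2 arrays. Col5a2, a chain of the type V collagen that starts fibril assembly, had signals of 9677, 5738 and 8893 on Math2 arrays 1, 2 and 3, against 9210, 5524 and 8764 on control arrays 1, 2 and 3. The groups overlapped almost fully, and the log2 difference was 0.049 (SE 0.26), which became -0.13 with quantile normalization. The second Col5a2 probe set gave 0.075.

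Arrays numbered 2 were the lowest of their group for several fibrillar collagens, whichever vector was used; these genes were chosen after their values were seen. Col3a1, the type III chain of pliable tissues, had 1258, 817 and 1292 on the Math2 arrays, against 1310, 817 and 1614 on the control arrays. Col1a2, a type I chain, had 2925, 1500 and 2304 on the Math2 arrays, against 2473, 1755 and 2786 on the control arrays. In all, 4 of 9 tested fibrillar collagens (Col1a1, Col1a2, Col3a1, Col5a2) were lowest on both arrays numbered 2, beside 15 of 86 member probe sets (background 16.4%), while 14 of 86 were highest on both (background 20.2%). The arrays numbered 2 also had the lowest Gapdh 3' to 5' ratio of their group, and the part of that was not tested.

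Col1a1, the other type I chain, had 466, 419 and 485 on the Math2 arrays, against 498, 492 and 648 on the control arrays. The groups did not overlap, by a margin of a few units, and the log2 difference was -0.25 (SE 0.26; exact permutation p = 0.1, the smallest possible with 3 against 3). A dimmer Col1a1 probe set, not tested, was also lower without overlap (-1.33). The type V chain Col5a1 had 522, 928 and 457 on the Math2 arrays, against 952, 705 and 911 on the control arrays, so that Math2 array 2 lay within the control values (log2 difference -0.48, SE 0.31, and -0.28 without Math2 array 3). Col5a3, a further type V chain, had 112, 295 and 41.7 on the Math2 arrays, against 302, 210 and 175 on the control arrays. It was lower in 2 of 3 pairs, and the log2 difference of -0.93 (SE 0.57) was -0.28 without Math2 array 3 and -1.59 without Math2 array 2.

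Basement membrane and network collagens had a median of -0.33 over 8 tested of 10 genes, 6 lower and 2 higher. Col4a1 and Col4a2 encode the chains of the common type IV collagen, and in the rat they lie head to head, with start sites 77 bases apart on opposite strands of chromosome 16. The stretch between the starts is shown because it serves both genes, whose signals were highest on the same control array. It is written on the Col4a1 strand from RefSeq, build GRCr8, at chr16:84885521-84885596 (+), with a GC box (CCGCCC or GGGCGG on either strand) in capitals:
Col4a1 and Col4a2: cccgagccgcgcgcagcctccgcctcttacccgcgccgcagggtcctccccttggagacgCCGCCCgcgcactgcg
Of 27457 genes with a promoter in the table, 19.3% have such letters in the 76 bases before their start. A match is a description of the letters.

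Col4a1 had 1622, 1366 and 2619 on Math2 arrays 1, 2 and 3, against 2218, 1647 and 3611 on control arrays 1, 2 and 3. Within each number the Math2 array was lower, although the groups overlapped, and the log2 difference was -0.39 (SE 0.33), or -0.088 without control array 3. A second Col4a1 probe set was also lower in 3 of 3 pairs (-0.23). Col4a2, named after its values were seen, had 387, 572 and 536 on the Math2 arrays, against 467, 476 and 1081 on the control arrays. Control array 3 stood above the others for both genes, and Col4a2 was lower in 2 of 3 pairs (log2 difference -0.34, SE 0.36), with 0.058 once control array 3 was left out.

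Col4a5 and Col4a6, the chains of another type IV network, form a second head-to-head pair, with starts 1415 bases apart on chromosome X. Col4a5 had 1856, 1110 and 1857 on the Math2 arrays, against 2736, 2467 and 2334 on the control arrays. Every Math2 array was below every control array, by 1.60-fold on the log2(signal + pseudocount) scale (log2 difference -0.68, SE 0.26; exact permutation p = 0.1). This was the smallest p among the member genes without the block (unadjusted p = 0.0234 in limma, and 0.0068 with the block), and adjustment over the whole array left it uncalled (adjusted p = 1.00, and 0.433 with the block). Without Math2 array 2 the log2 difference was -0.43. Col4a6 was dimmer, with 99.3, 52.6 and 55.5 on the Math2 arrays, against 143, 94.0 and 78.4 on the control arrays. It was lower in 3 of 3 pairs, with overlap between the groups (log2 difference -0.57, SE 0.40, and -0.34 without control array 1).

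**Figure D4:**
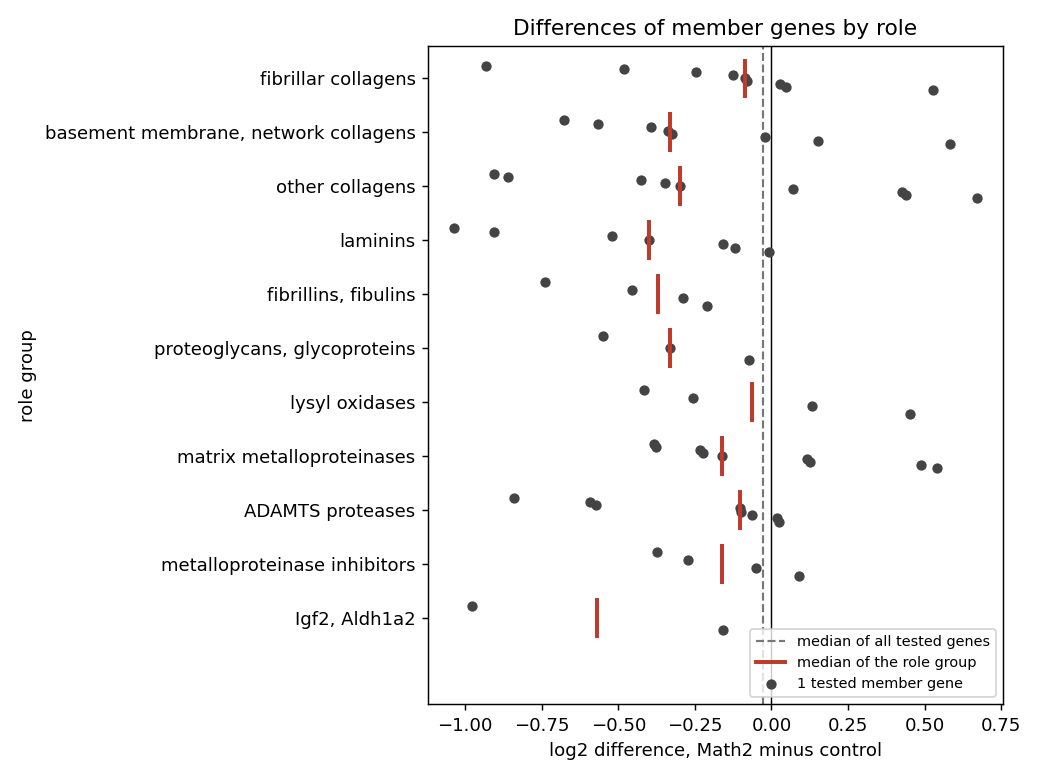
Each dot is 1 tested member gene, with its log2 difference, Math2 minus control, on the x axis and its role group on the y axis; red bars are role group medians and the dashed line is the median of all tested genes, -0.028. All 11 red bars lie left of 0, and fibrillar collagens, other collagens and metalloproteinases have dots on both sides.

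Among the remaining collagens, which coat fibrils, form beaded filaments or span membranes, 9 of 20 genes were tested, 5 lower and 4 higher (median -0.30). A dim gene among the 4 higher passed the filter on mean signal only through the Math2 arrays. Col12a1, which binds the surface of type I fibrils, had 718, 839 and 428 on the Math2 arrays, against 875, 1868 and 955 on the control arrays. The groups did not overlap, although Math2 array 2 and control array 1 were close. The log2 difference was -0.86 (SE 0.36), or 1.81-fold lower (exact permutation p = 0.1; limma adjusted p = 1.00, and 0.373 with the block). Without control array 2 the log2 difference was -0.52. The dimmer Col12a1 probe sets, not tested, had 0.062 and 0.30.

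Col14a1, of the same fibril-associated class, had 112, 59.1 and 60.5 on the Math2 arrays, against 121, 154 and 165 on the control arrays. Its brighter probe set was thus lower without overlap (log2 difference -0.91, SE 0.37), but the dimmer one was higher (0.26). Col9a2, a chain of the cartilage collagen type IX that was chosen after its values were seen, went the other way. It had 82.4, 150 and 122 on the Math2 arrays, against 52.9, 76.5 and 82.2 on the control arrays (log2 difference 0.67, SE 0.38), with signals near the array medians.

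Laminins, the cross-shaped trimers of basement membranes, were lower in all 7 tested of 10 genes, with a median of -0.40, except that Lamb1 was 0.033 with quantile normalization. A dim gene among the 7 passed the filter on mean signal only through the control arrays, where it was higher. Lamc1, the gamma chain that most laminins share, had 4352, 5450 and 4378 on Math2 arrays 1, 2 and 3, against 6832, 6018 and 5788 on control arrays 1, 2 and 3. Every Math2 array was below every control array, with means of 4727 ± 626 on the Math2 arrays and 6212 ± 549 on the control arrays (SD, n = 3 each). The log2 difference was -0.40 (SE 0.19; exact permutation p = 0.1), and limma did not call it (adjusted p = 1.00, and 0.615 with the block). The dimmer Lamc1 probe set had -0.13 and was lower in 1 of 3 pairs.

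Lama4, the alpha chain of vascular basement membranes, had 209, 297 and 146 on the Math2 arrays, against 322, 344 and 567 on the control arrays. The groups again did not overlap (log2 difference -0.90, SE 0.36, or 1.87-fold lower; exact permutation p = 0.1; limma adjusted p = 1.00, and 0.513 with the block), and it was -0.41 with the block and without pair 3. Lama5, an alpha chain of epithelial and vascular basement membranes that was chosen after its values were seen, had 30.5, 313 and 128 on the Math2 arrays, against 318, 217 and 187 on the control arrays. Math2 array 1 carried most of its log2 difference of -1.04 (SE 0.64), and Math2 array 2 was above 2 of the 3 control arrays. With the block and without pair 2, Lama5 was the only member called (limma adjusted p = 0.0222), in a setting that called 114 probe sets in all. Lamb2, a beta chain of synaptic and vascular laminins, was lower in 3 of 3 pairs (-0.52, and -0.11 without Math2 array 3), and Lamb1, the common beta chain, had -0.0074; both were named after their values were seen.

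Fibrillins and fibulins, the proteins of elastic microfibrils, were lower in all 4 tested of 5 genes (median -0.37). Fbn1 had 537, 510 and 511 on the Math2 arrays, against 837, 661 and 658 on the control arrays. The Math2 arrays lay close together and below all control arrays (log2 difference -0.45, SE 0.25; exact permutation p = 0.1; limma adjusted p = 1.00, and 0.668 with the block). Its dimmer probe set had a similar difference (-0.44) with overlap. Fbln1 had 178, 171 and 40.3 on the Math2 arrays, against 218, 147 and 204 on the control arrays; its log2 difference was -0.74 (SE 0.51), and -0.095 once Math2 array 3 was left out.

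Among adhesive glycoproteins and proteoglycans, all 3 tested genes of 6 were lower (median -0.33). Fn1, fibronectin, had 2241, 2700 and 3395 on the Math2 arrays, against 3213, 2904 and 4389 on the control arrays. It was lower in 3 of 3 pairs with overlap between the groups (log2 difference -0.33, SE 0.24, and -0.16 without control array 3). Mgp, an inhibitor of matrix calcification, had 1712, 2552 and 755 on the Math2 arrays, against 2316, 2244 and 2006 on the control arrays. Math2 array 2 was the highest of all, so the log2 difference of -0.55 (SE 0.38) rested on Math2 array 3 and was -0.063 without it. Postn, periostin, had 658, 845 and 675 on the Math2 arrays, against 649, 841 and 802 on the control arrays, a log2 difference of -0.074 (SE 0.25) that was 0.013 with the block and without pair 3.

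The small leucine-rich proteoglycan genes in the rule, Dcn, Ogn and Lum, which mark fibroblasts of connective tissue, had low signals. Dcn, decorin, had 24.7, 36.9 and 1.62 on the Math2 arrays, against 21.8, 5.26 and 18.4 on the control arrays, all below the array medians. Ogn, osteoglycin, had 58.3, 48.3 and 33.9 on the Math2 arrays, against 75.9, 25.5 and 77.7 on the control arrays. Lum, lumican, had 82.4, 121 and 8.11 on the Math2 arrays, against 29.8, 56.4 and 25.8 on the control arrays, and only Math2 array 2 exceeded its array median. These 3 did not pass the filter and were not tested, so the mesenchymal part of the label rests on the other members. Bgn, biglycan, is of the same class but outside the rule, and it was tested. It had 449, 567 and 342 on the Math2 arrays, against 404, 465 and 783 on the control arrays. These signals were above the array median on every array, with overlap between the groups (log2 difference -0.25, SE 0.33).

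Lysyl oxidases were all tested, 2 lower and 2 higher. Lox had 213, 319 and 411 on the Math2 arrays, against 471, 352 and 409 on the control arrays (log2 difference -0.42, SE 0.32), with -0.17 once Math2 array 1 was left out, and a dimmer Lox probe set had 0.070. Loxl2 had 742, 334 and 525 on the Math2 arrays, against 405, 224 and 548 on the control arrays (log2 difference 0.45, SE 0.40), with 0.10 once control array 2 was left out and 0.18 once Math2 array 1 was, whereas its dimmer probe set had -0.22. Of the 17 member genes with over 1 tested probe set, the probe sets differed in sign for 5.

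Matrix metalloproteinases had members on both sides, with 5 lower and 4 higher of 9 tested out of 17 (median -0.16). Mmp2, a gelatinase that cuts denatured and basement membrane collagens, was the higher member gene with the smallest p. It had 1545, 2472 and 1481 on Math2 arrays 1, 2 and 3, against 1234, 1317 and 1125 on control arrays 1, 2 and 3. Every Math2 array was above every control array, with means of 1833 ± 554 on the Math2 arrays and 1225 ± 96.4 on the control arrays (SD, n = 3 each). The log2 difference was 0.54 (SE 0.26), or 1.45-fold (exact permutation p = 0.1; limma adjusted p = 1.00, and 0.558 with the block). Without Math2 array 2 the log2 difference was 0.31, and a dimmer Mmp2 probe set, not tested, was lower without overlap (-0.81).

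Mmp14, the membrane protease known to activate the Mmp2 protein, had 749, 1811 and 917 on the Math2 arrays, against 659, 1199 and 1237 on the control arrays, and was named after its values were seen. The groups overlapped (log2 difference 0.12), and the dimmer Mmp14 probe set had -0.50. Mmp24, a membrane-type protease of neurons, had 233, 227 and 411 on the Math2 arrays, against 179, 122 and 348 on the control arrays. It was higher in 3 of 3 pairs (log2 difference 0.49, SE 0.42, and 0.16 without control array 2), and its dimmer probe sets had 0.21 and 0.12. The stromelysins and collagenases Mmp3, Mmp8, Mmp10 and Mmp13 were among the 8 metalloproteinase genes not tested for low signal.

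ADAMTS proteases, several of which cut the proteoglycans versican and aggrecan, had 6 lower and 2 higher of 8 tested out of 12 (median -0.10). Adamts9 had 465, 419 and 472 on the Math2 arrays, against 562, 852 and 669 on the control arrays. The groups did not overlap (log2 difference -0.59, SE 0.27; exact permutation p = 0.1; limma adjusted p = 1.00, and 0.590 with the block), and it was -0.38 with the block and without pair 2, while a dimmer probe set had -0.16. Adamts4 had 70.0, 149 and 174 on the Math2 arrays, against 164, 249 and 280 on the control arrays. It was lower in 3 of 3 pairs with overlap between the groups (log2 difference -0.84, SE 0.40, and -0.47 without Math2 array 1). Adamts1 had 998, 603 and 617 on the Math2 arrays, against 965, 1467 and 874 on the control arrays (log2 difference -0.57, SE 0.30, and -0.35 without control array 2), and pair 1 showed no lower value.

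The TIMP inhibitors were all measured, 3 lower and 1 higher. Timp2 had 3034, 2778 and 1613 on the Math2 arrays, against 2253, 2967 and 2254 on the control arrays, a log2 difference of -0.049 with overlap between the groups. Timp3, which binds to the matrix, had 1585, 2686 and 1098 on the Math2 arrays, against 2089, 2721 and 1801 on the control arrays. It was lower in 3 of 3 pairs (log2 difference -0.37, SE 0.33, and -0.073 without Math2 array 3), as was its second probe set (-0.34). A further tested Timp3 probe set, dimmer, had -0.080 and was lower in 2 of 3 pairs. Timp4 had 123.1, 281 and 261 on the Math2 arrays, against 214, 239 and 317 on the control arrays (log2 difference -0.27, SE 0.37).

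Aldh1a2, the retinoic acid synthesis enzyme that the meninges express, had 46.1, 40.9 and 49.2 on Math2 arrays 1, 2 and 3, against 73.4, 79.5 and 152 on control arrays 1, 2 and 3. Every Math2 array was below every control array, but all Math2 values lay below the array medians and control array 3 was the only one above its median. The log2 difference was -0.98 (SE 0.40; exact permutation p = 0.1; limma adjusted p = 1.00, and 0.590 with the block), and its size is uncertain at this signal. Aldh1a2 passed the filter on mean signal only through the control arrays, where it was higher, so its p-values carry that limit. Igf2, a growth factor of meninges and vessels, had 136, 323 and 173 on the Math2 arrays, against 116, 419 and 219 on the control arrays. Both arrays numbered 2 were the highest of their group (log2 difference -0.16, SE 0.48). The other 3 Igf2 probe sets, dimmer and not tested, read higher, at 1.43 and 0.28 in 3 of 3 pairs and at 0.27 in 2 of 3.

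**Figure D5:**
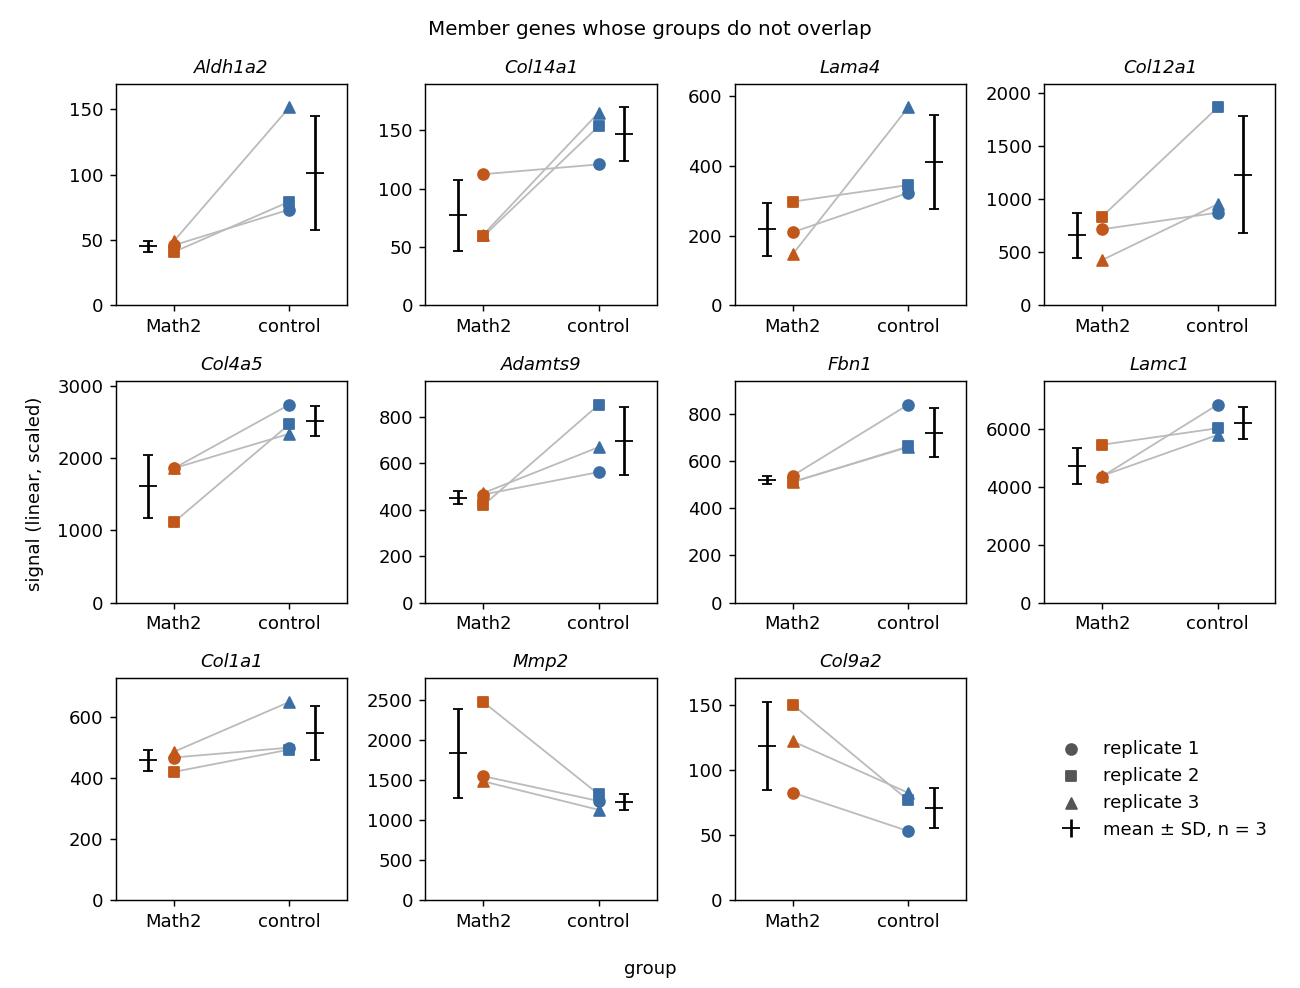
Panels show the 11 tested member genes whose 3 Math2 signals (orange, left) lie all above or all below the 3 control signals (blue, right); the y axis is linear signal from 0, symbols give the replicate number, grey lines join arrays of the same number, and black marks are mean ± SD (n = 3). In 9 genes the Math2 signals are lower, and in Mmp2 and Col9a2 they are higher. Of the 9, Aldh1a2 passed the filter on mean signal only through the control arrays. Over all 10417 tested genes, 468 were lower and 388 higher without overlap. Over all tested probe sets the shares were 4.3% lower and 3.7% higher.

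Math2 belongs to a family that binds E-boxes, with letters CANNTG. Promoter windows were found for 74 of the 101 member genes in the RefSeq table (build GRCr8), and the 250 bases before the first listed start were searched, where CANNTG reads the same on both strands. At least 1 E-box was present for 45 of the 74 (60.8%), beside 65.2% of all 27457 genes. The form CAGCTG was present for 15 (20.3%, beside 11.9% of all genes) and CAGATG, on either strand, for 7 (9.46%, beside 13.7%). These are forms of CANNTG and are counted within it. The windows of Aldh1a2, Adamts4 and Adamts9 are shown as examples of genes that were lower in 3 of 3 pairs and whose windows contain E-boxes, in capitals. Col4a6 and Timp3 also met both conditions and are not shown. Aldh1a2 is at chr8:80758391-80758640 (+), Adamts4 at chr13:86202761-86203010 (+) and Adamts9 at chr4:127019877-127020126 (-).
Aldh1a2: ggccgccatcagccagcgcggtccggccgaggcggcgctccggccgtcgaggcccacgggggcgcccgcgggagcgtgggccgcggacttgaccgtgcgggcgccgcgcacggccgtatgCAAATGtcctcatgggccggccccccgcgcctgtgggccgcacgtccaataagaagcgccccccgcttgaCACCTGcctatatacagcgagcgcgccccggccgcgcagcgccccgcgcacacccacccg
Adamts4: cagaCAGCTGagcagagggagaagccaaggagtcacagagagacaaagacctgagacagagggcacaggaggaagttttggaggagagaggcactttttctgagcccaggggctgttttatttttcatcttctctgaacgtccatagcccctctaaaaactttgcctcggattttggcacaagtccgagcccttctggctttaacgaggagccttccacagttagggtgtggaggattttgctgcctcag
Adamts9: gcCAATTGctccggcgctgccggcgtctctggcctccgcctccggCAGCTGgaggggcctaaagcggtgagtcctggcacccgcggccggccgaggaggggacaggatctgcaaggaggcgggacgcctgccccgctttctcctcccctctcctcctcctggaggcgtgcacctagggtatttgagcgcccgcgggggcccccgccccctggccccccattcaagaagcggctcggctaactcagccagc
Among the 10 tested genes with a window that were lower in 3 of 3 pairs, 5 had an E-box. The windows of Col4a5, Lama4, Lamc1 and Fbn1 held none of these letters, which says nothing of the factor.

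Genes that work with the matrix but lie outside the rule are given beside the 54.2% of all tested genes that were lower, and 0 passed in limma with or without the block. Of 16 tested matrix receptors 10 were lower and 6 higher (median -0.19). Itga6, a laminin-binding integrin chain, had 4034, 2318 and 3316 on the Math2 arrays, against 4515, 4506 and 4252 on the control arrays (log2 difference -0.49, SE 0.23). Itga7, another laminin-binding integrin chain, read higher, with 95.0, 126 and 112 on the Math2 arrays, against 61.6, 12.8 and 140 on the control arrays (log2 difference 1.00, SE 0.62). It was higher in 2 of 3 pairs, and control array 2 was far below the others. The mean of its control arrays alone lay under the filter on mean signal. Of 14 collagen-processing genes 11 were lower and 3 higher (median -0.21). Plod1, a lysyl hydroxylase, had -0.40 and Bmp1, a procollagen protease, -0.31. Of 16 TGF-beta pathway genes and targets 10 were lower and 6 higher (median -0.10). The latent TGF-beta binding protein genes Ltbp4 and Ltbp2 had -0.82 and -0.74, while Tgif1 (0.26) and Ccn2 (0.23) were among the 6 higher. Of 15 further matrix genes of brain and basement membrane 12 were lower and 3 higher (median -0.20). The hyaluronan synthase gene Has2 had -0.56 and agrin, Agrn, -0.45.

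Markers of the cells that could supply matrix transcripts were read beside the members. Of 18 fibroblast and meningeal markers outside the rule, 17 had a probe set and 10 were tested, 7 lower and 3 higher (median -0.22). Their summed signal was 11280 to 12418 on the Math2 arrays and 12517 to 14264 on the control arrays, without overlap. Fstl1, a secreted glycoprotein gene that astrocytes also express, supplied the largest share of that sum on every array. Of the meningeal markers, Foxc1, Foxc2, Slc6a13, Slc22a6 and Slc13a4 lay below the array median on all 6 arrays. Cyp1b1 had 1012, 694 and 623 on the Math2 arrays, against 1026, 1573 and 1609 on the control arrays (log2 difference -0.85, SE 0.29). Pdgfrb, the receptor of pericytes and fibroblasts, was higher in 3 of 3 pairs, with 147, 159 and 293 on the Math2 arrays, against 62.9, 37.2 and 54.8 on the control arrays (log2 difference 1.77, SE 0.39), and neither gene passed (limma adjusted p = 1.00 for both; with the block 0.435 for Cyp1b1 and 0.198 for Pdgfrb). All control signals of Pdgfrb lay below the array medians. It passed the filter on mean signal only through the Math2 arrays, and the size of its difference is uncertain at this signal.

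Mural and smooth muscle markers had a median of 0.13 over 7 tested genes, and their summed signal was 7872 to 9753 on the Math2 arrays and 6657 to 10447 on the control arrays. Endothelial markers had a median of -0.35 over 5 tested genes, with sums of 663 to 1111 on the Math2 arrays and 849 to 1443 on the control arrays, and Pecam1, Cldn5, Kdr, Tek, Tie1 and Vwf were below the array median throughout. Astrocyte markers had a median of -0.045 over 8 tested genes, 5 lower and 3 higher, with sums of 24205 to 39257 on the Math2 arrays and 27131 to 35466 on the control arrays. Fgfr3, a growth factor receptor of astrocytes, had 3459, 3494 and 3315 on the Math2 arrays, against 5355, 5328 and 4637 on the control arrays. It was lower without overlap (log2 difference -0.57, SE 0.19; limma adjusted p = 1.00, and 0.410 with the block), and the astrocyte water channel gene Aqp4 was lower in 3 of 3 pairs (-0.49). The 3 higher astrocyte markers were Slc1a3 (0.17), Gja1 (0.078) and Gfap (0.069). All 10 microglial and macrophage markers lay below the array median on all 6 arrays and 0 were tested, with sums of 222 to 311 on the Math2 arrays and 323 to 372 on the control arrays. Neuron markers had a median of 0.065 over 10 tested genes, with sums of 16187 to 35971 on the Math2 arrays and 15908 to 28773 on the control arrays. Rbfox3, the gene of the neuronal nuclear antigen NeuN, had 79.1, 264 and 289 on the Math2 arrays, against 50.3, 53.4 and 163 on the control arrays. It was higher in 3 of 3 pairs with overlap (log2 difference 1.18, SE 0.57; limma adjusted p = 1.00, and 0.456 with the block), and the synaptic vesicle gene Syp had -0.48. Sums of the mural, endothelial, astrocyte and neuron lists overlapped between the groups. The fibroblast sums were lower on the Math2 arrays without overlap, by a narrow margin (highest Math2 sum 12418, lowest control sum 12517). Fstl1 supplied their largest share, and no sum without it was taken. The microglial sums were also lower without overlap, but they add only signals below the array medians. Tagln supplied the largest share of the mural sum on every array, and Slc1a3 and Gja1 were the brightest astrocyte markers on every array. The part of cell composition in the members' values was not tested.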

How the data were processed

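Each value in the deposited table is a linear intensity of a probe set, which the authors computed with MAS5, per the submitters' processing notes; its version is not given in the sources used. The mean without the highest and lowest 2% of values was 500 on each array, so no further scaling was applied. Of 31099 probe sets, 57 control probe sets were left out of the tests. Of the rest, 20826 had 1 platform gene symbol, 436 had several and 9780 had none, and 20758 single symbols were matched to RefSeq genes by gene number. The scale of the tests was log2(signal + 7.41), with the 10th percentile of the signals as pseudocount, and a probe set whose mean fell under the 40th percentile (6.07) was not tested. Two-sided tests on the other 18625 used limma 3.58.1 in R 4.3.3 (lmFit, and eBayes with a trend on intensity), adjusted by Benjamini-Hochberg, with a threshold of 0.05.

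Across probe sets, the correlation of deviations from group means was 0.326 between the arrays numbered 1, 0.476 between those numbered 2 and 0.372 between those numbered 3. All exceeded the limit of 0.1, so the numbers were taken to pair the samples, from the data and not from the labels. The fit without the block was the main one. All SEs and exact permutation p-values in the text, and the limma p-values given without the block, take no account of this pairing.

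Members, lists and tests were chosen with earlier results of these data known. The text names the members given singly in the rule, the brightest member of each role group and the 2 with the smallest p, and from each other list up to 2 genes with the smallest p; others are named as chosen after their values were seen. A gene is represented by its brightest probe set.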

Additional observations from a re-analysis of the deposited data

How the results depend on the processing

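In 19 alternative settings the median log2 difference of the member genes stayed below 0: with each array left out it ran from -0.29 (without Math2 array 2) to -0.16 (without control array 3), with the block and without a numbered pair from -0.27 to -0.16, and it was -0.19 with quantile normalization, -0.21 with no filter and -0.25 with the stricter filter. Member calls stayed at 0 except with the block and without pair 2, where there was 1 (Lama5). Over all tested probe sets, limma called 0 without the block (smallest adjusted p = 0.492; 594 under an unadjusted 0.05), 3 with the replicate block, 5 with the replicate block and quantile normalization, and 4 without pair 1, 114 without pair 2 and 15 without pair 3, all with the replicate block and added after seeing the data. The block, which pairs arrays by number, changed no call of a member.

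Of 36 tested member genes named in the text, 27 by the rule and 9 after their values were seen, 26 kept their sign throughout, and Lama5 was the only one called in any setting. Col5a2 (0.049) was -0.13 with quantile normalization, with or without the replicate block, and with 1 array left out ran from -0.18 to 0.28, being below 0 when control array 2, Math2 array 1 (-0.097) or Math2 array 3 (-0.036) was the one left out. Igf2 ran from -0.60 to 0.29 in the same settings, above 0 when control array 2 or Math2 array 1 (0.096) was left out. Timp2 ran from -0.22 to 0.23, above 0 when Math2 array 3 or control array 2 (0.083) was left out, and was 0.17 with the block and without pair 3. Timp4 ran from -0.48 to 0.093, above 0 when Math2 array 1 was left out, and Postn was 0.013 with the block and without pair 3. Among those named after their values were seen, the ranges with 1 array left out were -0.30 to 0.18 for Col1a2, -0.40 to 0.086 for Col3a1, -0.54 to 0.058 for Col4a2, -0.29 to 0.16 for Lamb1 and -0.26 to 0.37 for Mmp14. With the block, Col1a2 was 0.0079 without pair 3, Mmp14 -0.12 without pair 2, and Lamb1 0.063 without pair 1 and 0.086 without pair 3. Lamb1 was 0.033 with quantile normalization, with or without the replicate block. Lama5 was -1.81 with the block and without pair 2, and -0.0013 with the block and without pair 1. The causes were not tested. The deposited values carry no detection calls, so dim signals limit Aldh1a2, Col14a1, Col4a6 and Col9a2 and, outside the rule, Pdgfrb and Itga7.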
